A study of Mus musculus with 6 samples.

Results

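The glutathione, peroxiredoxin and antioxidant genes of the mouse lung were examined in bulk RNA-sequencing of whole lungs. Members were taken by name from the table of read counts: the glutathione transferases of the alpha, kappa, mu, omega, pi and theta classes, the glutathione peroxidases and the peroxiredoxins whose symbol ends in a number, and 12 further genes of the same systems. This gave 47 of the 49568 gene symbols in the table, of which 44 had enough reads to be tested. The 6 mice, 3 TNF+ and 3 TNF-, were all females 4 months old. TNF+ mice carried 1 copy of the human TNF gene (the TNF-Tg line, a model of arthritis with lung vessel disease) and overexpressed it. The sources used here name no promoter or cell type for the transgene. TNF- mice were wild-type (WT) littermates, and the groups shared no other allele or treatment that the labels name.

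Glutathione is a small thiol that cells make in a pair of steps, the first of which is set by glutamate-cysteine ligase. Glutathione peroxidases spend it to reduce peroxides, glutathione transferases join it to reactive compounds, and glutathione reductase returns the oxidized form. Peroxiredoxins reduce peroxides with thioredoxin in place of glutathione, and sulfiredoxin repairs them when they are over-oxidized. The transcription factor NRF2 (gene Nfe2l2), which KEAP1 marks for degradation, switches on many of these genes by binding the antioxidant response element, a short DNA motif. In the lung these systems stand at the airway surface, in the alveoli and in macrophages.

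In TNF+ lungs Gsr, Txnrd1 and Srxn1, which recycle glutathione, thioredoxin and peroxiredoxins, rose, as did 5 of 6 peroxiredoxins (3 with any 1 lung left out), while 12 of 20 tested glutathione transferases fell. Prdx1 was 3.64-fold higher, Srxn1 3.45-fold, Gsr 3.4-fold, Txnrd1 2.48-fold and Gclm 2.23-fold. On the other side Gpx2 was 3.37-fold lower, Gstk1 2.34-fold and Prdx6 1.84-fold. In all, 15 members rose and 16 fell at an adjusted p of 0.05 (quasi-likelihood test of edgeR, p-values adjusted by the Benjamini-Hochberg method across the 19199 genes tested), and 13 did not pass. That is 70.5% of the tested members. Of all genes tested, 47.4% passed, 24.0% as higher and 23.4% as lower. The 3 TNF+ lungs lay all above or all below the 3 TNF- lungs for 32 members, against 58.7% of all genes tested. The median log2 fold change was -0.10 over the members and 0.03 over all genes. No member that passed changed direction in any of the 16 alternative fits, and 23 of the 31 passed in every fit that tested them. Among the 23 was Gsto2, which the filter of at least 10 counts in every lung left out (9 counts in TNF+ lung 1). The 8 that lost the call in some fit, Prdx2, Prdx3, Gpx4, Gpx7, Gsta1, Gsta3, Gstm5 and Gstt3, are given below with the lungs on which their calls depended.

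**Figure D1:**
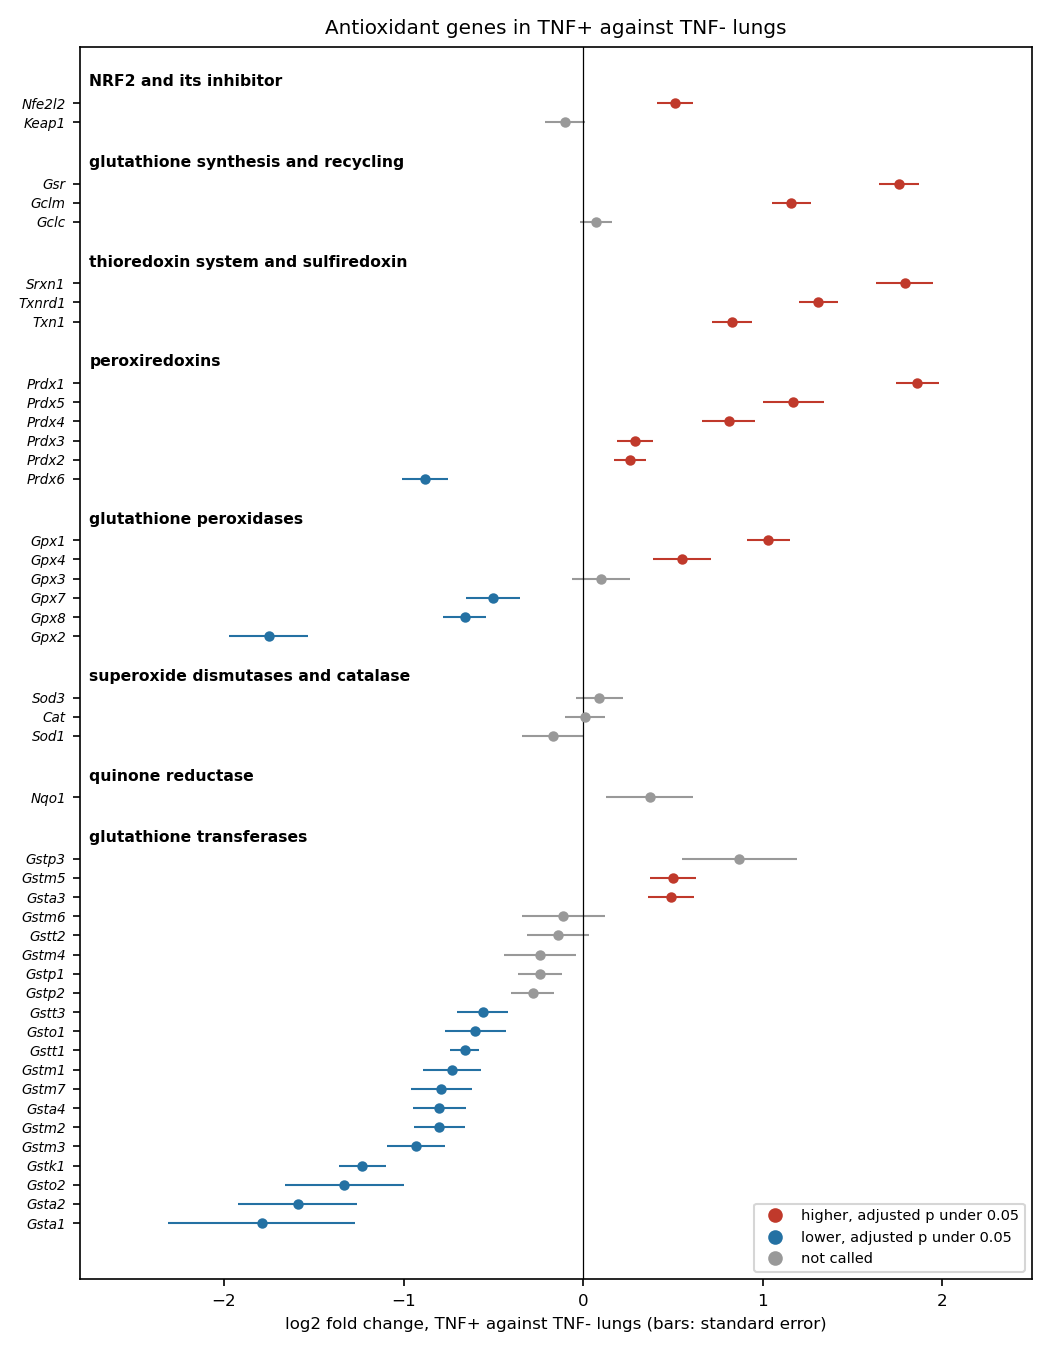
Log2 fold change (points) and standard error (bars) of the 44 tested members in TNF+ against TNF- lungs, 3 mice a group, ordered by role. The red points (15 genes) include every peroxiredoxin except Prdx6, and the blue points (16 genes) include 12 of the 20 tested glutathione transferases.

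The libraries held 25396923 to 30049463 counts in TNF+ lungs and 31400978 to 32529408 in TNF- lungs, and the members took 0.678% to 0.734% of them in every lung. At this depth 3 counts, taken as the detection floor, correspond to 0.0922 to 0.118 CPM, a limit that covers counting error only. A pair of libraries stood apart. TNF+ lung 1 had 5.22% of its counts on Gm42418, a gene model within ribosomal RNA, against 0.0774% to 0.274% in the other lungs. TNF- lung 1 had summed normalized counts of 106316 for squamous epithelium markers and 44075 for skeletal muscle markers, against at most 972 in any other lung for either list. Without both of these lungs, a check added after the data were seen, 25 members passed, 10 as higher and 15 as lower, beside 6064 of all genes, 2689 as higher and 3375 as lower. Normalized counts below are counts divided by the scaled library total and multiplied by its mean, and the value of each lung is given in the order 1, 2, 3.

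The motif TGACNNNGC (GCNNNGTCA when read on the other strand), the core of the antioxidant response element, was searched on both strands in RefSeq promoters of GRCm38.p6 that span 250 bases before to 50 bases after a transcript start. Promoters were given for 41 of the 47 members, and 9 of these (22.0%) held the motif, against 3781 of 27025 genes (14.0%). Among tested members with a promoter it was found in 7 of the 14 that were higher in TNF+ lungs (Prdx1, Srxn1, Txnrd1, Gclm, Nfe2l2, Gsta3 and Gstm5), in 1 of the 14 that were lower (Gstm7) and in 1 of the 10 that did not pass (Sod1). The untested Gpx5, Gpx6 and Gstt4 did not hold it. The shares among all genes called higher or lower were not computed, so a link between motif and direction was not tested. A match is a description of these letters in this window, and binding was not measured. The 4 promoters printed here belong to the genes with the largest rises among those that held it. Capitals mark the motif, which began 133 bases before the start in Prdx1, 29 bases after it in Srxn1, 92 before it in Txnrd1 (in 1 of its 3 promoters) and 134 before it in Gclm. No entry was given for Gsr, Gclc, Prdx6, Gsta4, Gstt2 and Sod3.
Prdx1, chr4:116685349-116685648, plus strand: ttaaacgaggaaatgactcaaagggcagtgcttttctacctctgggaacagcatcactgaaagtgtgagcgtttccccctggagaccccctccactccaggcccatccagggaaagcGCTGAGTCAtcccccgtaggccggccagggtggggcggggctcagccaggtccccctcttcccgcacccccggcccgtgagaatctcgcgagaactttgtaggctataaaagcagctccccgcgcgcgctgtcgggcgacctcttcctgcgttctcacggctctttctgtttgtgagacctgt
Srxn1, chr2:152105274-152105573, plus strand: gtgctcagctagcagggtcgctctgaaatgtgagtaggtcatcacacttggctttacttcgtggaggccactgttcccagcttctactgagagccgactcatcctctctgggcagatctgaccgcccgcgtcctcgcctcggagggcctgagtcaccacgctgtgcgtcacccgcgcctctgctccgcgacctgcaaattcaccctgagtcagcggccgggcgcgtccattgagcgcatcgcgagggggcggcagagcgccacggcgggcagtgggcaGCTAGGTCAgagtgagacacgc
Txnrd1, chr10:82858956-82859255, plus strand: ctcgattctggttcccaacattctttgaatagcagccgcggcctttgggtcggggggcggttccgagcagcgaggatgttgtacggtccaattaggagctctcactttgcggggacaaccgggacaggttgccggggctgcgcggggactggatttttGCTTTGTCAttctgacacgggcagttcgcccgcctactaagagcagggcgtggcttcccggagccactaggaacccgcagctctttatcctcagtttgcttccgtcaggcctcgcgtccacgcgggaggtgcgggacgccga
Gclm, chr3:122245307-122245606, plus strand: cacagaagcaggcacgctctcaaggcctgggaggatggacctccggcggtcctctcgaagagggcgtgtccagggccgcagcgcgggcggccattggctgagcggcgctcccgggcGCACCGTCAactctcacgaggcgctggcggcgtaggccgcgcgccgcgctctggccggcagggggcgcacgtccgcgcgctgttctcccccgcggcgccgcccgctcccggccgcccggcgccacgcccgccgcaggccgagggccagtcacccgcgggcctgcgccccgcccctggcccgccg

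The gene of NRF2 itself was higher. Nfe2l2 (chr2:75675513-75704641) had normalized counts of 5481, 4749 and 5006 in TNF+ lungs and 3747, 3544 and 3385 in TNF- lungs. Each TNF+ lung lay above each TNF- lung, with a log2 fold change of 0.51 (SE 0.10, edgeR's adjusted p = 0.00359). Keap1, which encodes its inhibitor, had 1828, 2159 and 1762 against 2121, 1913 and 2126, and these groups overlapped (log2 fold change -0.10, SE 0.11, edgeR's adjusted p = 0.466). The count ratio of Nfe2l2 to Keap1 within a lung, which needs no scaling between libraries, was 2.2 to 3 in TNF+ lungs and 1.59 to 1.85 in TNF- lungs. Keap1 shares 10.9% of its exon bases with a gene on the opposite strand, and the strand setting of the counting is not given in the sources used here. The level of NRF2 protein was not measured.

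Of the 3 members that make and recycle glutathione, 2 rose. Gss, the synthetase of the second step and no member, was lower (log2 fold change -0.44, edgeR's adjusted p = 0.0251), a call kept in 3 of the 6 fits that leave out 1 lung. Gsr (chr8:33652523-33698163), glutathione reductase, had normalized counts of 1785, 1978 and 1872 in TNF+ lungs and 539, 500 and 620 in TNF- lungs. The groups stood far apart with little spread in either, and the log2 fold change was 1.76 (SE 0.11, edgeR's adjusted p = 1.49e-05). Of the 2 subunits of glutamate-cysteine ligase, 1 passed the test. Gclm (chr3:122245557-122270732), the modifier subunit, had 2006, 2252 and 1713 in TNF+ lungs against 882, 895 and 896, a log2 fold change of 1.16 (SE 0.11, edgeR's adjusted p = 0.000119). Gclc (chr9:77754535-77794485), the catalytic subunit, had 3282, 3282 and 3497 against 3071, 3154 and 3352. Its groups overlapped, and its log2 fold change of 0.07 (SE 0.09) did not pass (edgeR's adjusted p = 0.533). The count ratio of Gclm to Gclc was 0.611, 0.686 and 0.49 in TNF+ lungs and 0.287, 0.284 and 0.267 in TNF- lungs, so every TNF+ lung had the higher ratio. An exact two-sided permutation test of the mean ratio gave p = 0.1, the smallest value that 3 lungs against 3 allow, and 0.167 after adjustment over the 10 ratios computed. The same 2 values hold for the ratio of Nfe2l2 to Keap1.

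The 3 members of the thioredoxin system, Srxn1, Txnrd1 and Txn1, rose. Of the mitochondrial and testis-type genes of the system, which are no members, Txn2 (log2 fold change 0.00) and Txnrd3 (-0.02) did not pass (edgeR's adjusted p = 0.993 and 0.884). Txnrd2 passed at 0.35 (adjusted p = 0.0398) but in only 1 of the 6 fits that leave out 1 lung. Srxn1 (chr2:152105516-152111376), sulfiredoxin, had normalized counts of 2712, 3019 and 2035 in TNF+ lungs and 808, 647 and 795 in TNF- lungs. Its lowest TNF+ lung was still above the highest TNF- lung, and the log2 fold change was 1.79 (SE 0.16, edgeR's adjusted p = 8.14e-05). Txnrd1 (chr10:82833951-82897712), the cytosolic thioredoxin reductase, had 3853, 3906 and 3622 against 1455, 1415 and 1719, a log2 fold change of 1.31 (SE 0.11, edgeR's adjusted p = 4.51e-05). Its substrate thioredoxin, Txn1 (chr4:57943373-57956411), had 5658, 6310 and 5248 against 2979, 3189 and 3542. Txn1 rose by 0.83 on the log2 scale (SE 0.11, edgeR's adjusted p = 0.000676), again without overlap. The count ratio of Srxn1 to Prdx1, which sulfiredoxin repairs, was 0.114 to 0.15 in TNF+ lungs and 0.124 to 0.17 in TNF- lungs, and these ranges overlapped (exact two-sided permutation p = 0.7, adjusted 0.778).

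The 6 peroxiredoxins all passed the test, 5 as higher and 1 as lower. The number higher was 3 with any 1 of the 6 lungs left out and 3 by DESeq2. Prdx1 (chr4:116685544-116700822), a cytosolic enzyme, had normalized counts of 18050, 20121 and 17898 in TNF+ lungs and 4766, 5197 and 5460 in TNF- lungs. It had the largest rise of the tested members, 1.86 on the log2 scale (SE 0.12, edgeR's adjusted p = 1.48e-05), and its group ranges were far apart. Prdx6 (chr1:161240112-161251219), the peroxiredoxin that works with glutathione and also acts on phospholipids, went the other way. It had 16155, 14933 and 13179 in TNF+ lungs and 28684, 26073 and 26599 in TNF- lungs, a log2 fold change of -0.88 (SE 0.13, edgeR's adjusted p = 0.00084), and all TNF+ lungs were below all TNF- lungs. The count ratio of Prdx1 to Prdx6 was 1.12, 1.35 and 1.36 in TNF+ lungs and 0.166, 0.199 and 0.205 in TNF- lungs (exact two-sided permutation p = 0.1, adjusted 0.167).

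On the scale of levels per exon length, Prdx6 was the highest peroxiredoxin in TNF- lungs, with 50.8% to 56.4% of the summed level of the 6 genes, and Prdx1 was the next, with 14.8% to 16.8%. In TNF+ lungs Prdx1 held 40.2% to 43.7% and Prdx6 19.9% to 22.8%, so the order of these 2 genes turned over, with no overlap of either gene's share between the groups. Prdx5, found in mitochondria and peroxisomes, held 18% to 21.2% in TNF+ lungs, a range that overlapped with that of Prdx6 there. The summed normalized counts of the family were 42035 to 48396 in TNF+ lungs and 38380 to 40445 in TNF- lungs.

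Prdx5 (chr19:6906697-6910106) had normalized counts of 5693, 7097 and 5308 in TNF+ lungs and 2507, 2225 and 3292 in TNF- lungs, without overlap (log2 fold change 1.17, SE 0.17, edgeR's adjusted p = 0.000956). It shares 19.1% of its exon bases with Trmt112 on the opposite strand. Prdx4 (chrX:155323918-155340754), the enzyme of the endoplasmic reticulum, had 1576, 1449 and 1083 against 686, 819 and 832 (log2 fold change 0.81, SE 0.15, edgeR's adjusted p = 0.00324), also without overlap. The cytosolic Prdx2, which is abundant in red blood cells, and the mitochondrial Prdx3 had smaller differences. Prdx2 had 3778, 3763 and 3569 against 2924, 3214 and 3124 (log2 fold change 0.26, SE 0.09, edgeR's adjusted p = 0.0393). Prdx3 had 1189, 1033 and 998 against 879, 850 and 904 (log2 fold change 0.29, SE 0.10, edgeR's adjusted p = 0.0448). Neither gene's groups overlapped, but both lost the call whichever lung of the 6 was left out, with edgeR's adjusted p of 0.0558 to 0.164 for Prdx2 and 0.055 to 0.252 for Prdx3. Without TNF+ lung 1 the log2 fold change of Prdx3 was 0.18. DESeq2 did not call them either (adjusted p = 0.0691 and 0.102), nor did edgeR with the replicate number as a block (0.0985 and 0.0882). In edgeR both also missed the threshold with DESeq2's size factors (0.0588 for Prdx2 and 0.0623 for Prdx3), with no filter on low counts (0.115 and 0.0919) and with scaling by total counts (0.143 and 0.127), and Prdx3 did so with limma-voom (0.0509).

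**Figure D2:**
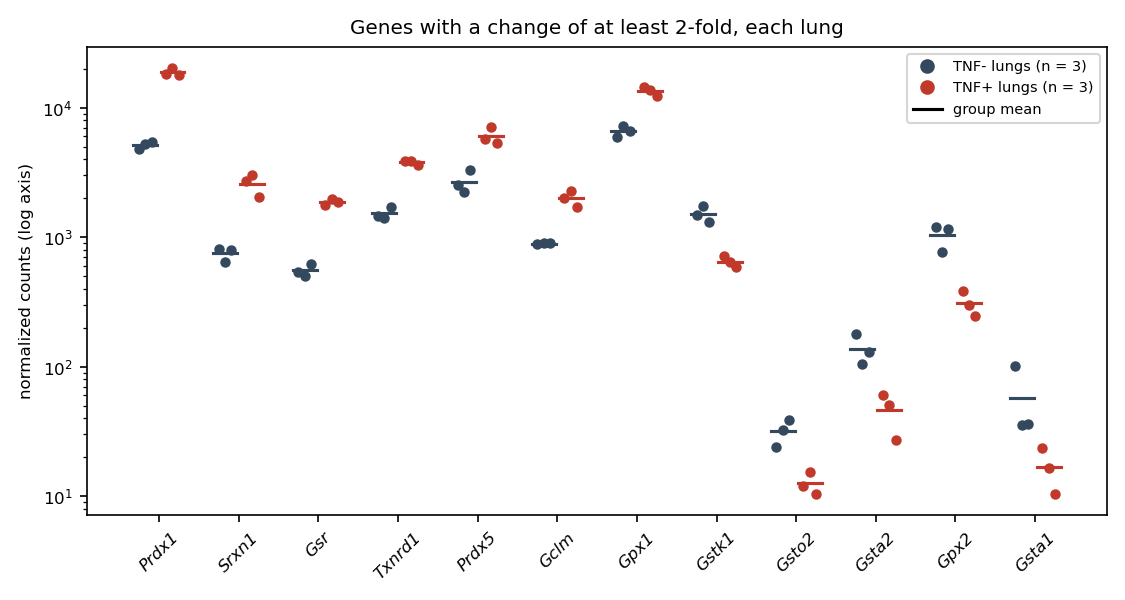
Normalized counts (log axis) in each lung for the 12 members that passed the test with a change of at least 2-fold, TNF- lungs in dark blue and TNF+ lungs in red, with bars at the group means. Prdx1 shows the widest gap among the genes that rose, 17898 to 20121 against 4766 to 5460, and the 5 genes on the right lie lower in every TNF+ lung.

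Of the 6 glutathione peroxidases tested, 2 rose (1 without TNF+ lung 1, TNF+ lung 2, TNF- lung 1 or TNF- lung 2) and 3 fell. Gpx1 (chr9:108338903-108340343), the cytosolic selenoenzyme found in most cells, had normalized counts of 14304, 13582 and 12263 in TNF+ lungs and 5909, 7219 and 6547 in TNF- lungs. The 3 TNF+ lungs lay well above the others, and the log2 fold change was 1.03 (SE 0.12, edgeR's adjusted p = 0.000307). Gpx2 (chr12:76792333-76795554), the epithelial form, had 384, 298 and 248 in TNF+ lungs and 1199, 770 and 1156 in TNF- lungs. It fell in each TNF+ lung relative to each TNF- lung, with a log2 fold change of -1.75 (SE 0.22, edgeR's adjusted p = 0.0004). There were 37.3 to 49.4 counts of Gpx1 for each count of Gpx2 in TNF+ lungs and 4.93 to 9.38 in TNF- lungs (exact two-sided permutation p = 0.1, adjusted 0.167).

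Gpx3 (chr11:54902453-54910377), the secreted plasma form, was the highest member on the scale of levels per exon length. It had normalized counts of 60104, 45734 and 46808 in TNF+ lungs and 44979, 51918 and 45350 in TNF- lungs. Its groups overlapped, and its log2 fold change of 0.10 (SE 0.16, edgeR's adjusted p = 0.628) was -0.07 without TNF+ lung 1. Gpx3 held 70.3% to 73.5% of the family's summed level per exon length in TNF- lungs and 59.9% to 66.2% in TNF+ lungs, while the share of Gpx1 was 12.1% to 12.9% and 19.8% to 22.4%. Gpx1 and Gpx4 had neighbouring levels, and in TNF- lungs their shares overlapped, with Gpx4 at 10.3% to 13.2%.

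Gpx4, which reduces lipid peroxides in membranes, had normalized counts of 10614, 11603 and 8551 in TNF+ lungs and 6024, 6912 and 8092 in TNF- lungs (log2 fold change 0.55, SE 0.16, edgeR's adjusted p = 0.0204). The highest TNF- lung came close to the lowest TNF+ lung, and the call held in 2 of the 6 fits that leave out 1 lung. EdgeR's adjusted p was 0.0739 without TNF+ lung 1, 0.0747 without TNF+ lung 2, 0.0788 without TNF- lung 1 and 0.0687 without TNF- lung 2. Of its 100-base windows, 25.2% also occur in the pseudogene Gpx4-ps2, so part of its reads could not be assigned to 1 place. Gpx8, an enzyme of the endoplasmic reticulum, had 584, 475 and 505 against 799, 858 and 805, all TNF+ lungs being lower (log2 fold change -0.66, SE 0.12, edgeR's adjusted p = 0.00223). Gpx7, of the same compartment, had 204, 224 and 182 against 273, 309 and 282 (log2 fold change -0.50, SE 0.15, edgeR's adjusted p = 0.0225). Its call was lost without TNF+ lung 3 (adjusted p = 0.0629) and without TNF- lung 2 (adjusted p = 0.0803). Gpx5 and Gpx6 had 1 to 5 counts in each lung and were not tested.

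**Figure D3:**
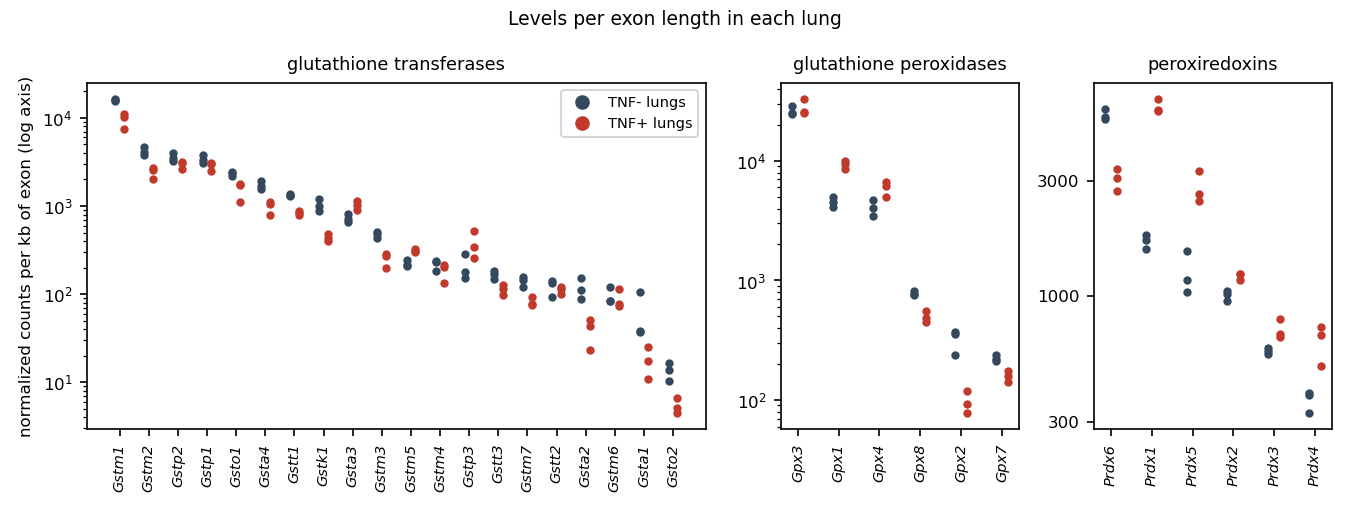
Normalized counts per kilobase of exon (log axis) in each lung for the tested glutathione transferases, glutathione peroxidases and peroxiredoxins, ordered by their mean in TNF- lungs, with TNF- lungs in dark blue and TNF+ lungs in red. Prdx6 leads the peroxiredoxins in TNF- lungs and Prdx1 in TNF+ lungs, while Gstm1 and Gpx3 lead their families in both.

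Among the 21 glutathione transferases, 12 fell, 2 rose, 6 did not pass and 1 (Gstt4, with 0 to 3 counts a lung) was not tested. The number that rose was 1 without TNF- lung 1 or TNF- lung 2 and 0 without both lungs numbered 1. The median log2 fold change of the 20 tested was -0.63. Their summed normalized counts were 32558 to 44083 in TNF+ lungs and 55539 to 58786 in TNF- lungs, ranges that did not overlap. Most lie in clusters of neighbouring genes. The mu class genes, 7 in number, occupy chr3:107895821-108044894 in GRCm38, and 4 of them fell, 1 rose and 2 did not pass. In the alpha cluster at chr9:78182774-78355788 all 3 genes fell, whereas Gsta3 on chromosome 1 rose. In the theta cluster at chr10:75774115-75837424 2 of the 3 tested genes fell, and in the pi cluster at chr19:4035407-4059569 edgeR called 0 of 3, with 1 higher and 1 lower at an unadjusted p under 0.05, and DESeq2 also called 1 in each direction.

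Gstm1 was the highest transferase per exon length in both groups, with 44.1% to 44.4% of the family's summed level in TNF- lungs and 37.5% to 41.1% in TNF+ lungs. It had 15154, 16442 and 11048 normalized counts in TNF+ lungs and 23295, 22959 and 24291 in TNF- lungs. TNF+ lung 3 was the lowest of the 6, and the groups did not overlap (log2 fold change -0.73, SE 0.16, edgeR's adjusted p = 0.00687). Its neighbour Gstm2 had 4272, 4478 and 3414 against 6403, 7866 and 6958 (log2 fold change -0.80, SE 0.14, edgeR's adjusted p = 0.00185). Gstm3 had 351, 372 and 259 against 656, 573 and 635 (log2 fold change -0.93, SE 0.16, edgeR's adjusted p = 0.00189), and 13.8% of its 100-base windows occur in other genes. Gstm7 was lower as well, with 148, 122 and 123 against 232, 253 and 195 (log2 fold change -0.79, SE 0.17, edgeR's adjusted p = 0.0066). In the same cluster Gstm5 had 397, 383 and 414 against 310, 264 and 273, every TNF+ lung being above every TNF- lung. Its log2 fold change was 0.50 (SE 0.13, edgeR's adjusted p = 0.0125), and without TNF- lung 2 the adjusted p was 0.0609. Gstm5 shares 13.9% of its exon bases with a gene on the opposite strand. Gstm4 and Gstm6 overlapped between the groups.

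The transferase with the clearest fall outside these clusters was Gstk1 (chr6:42245935-42250447), the kappa class enzyme of mitochondria and peroxisomes. It had normalized counts of 712, 640 and 585 in TNF+ lungs and 1487, 1746 and 1305 in TNF- lungs. The groups were separated by a wide gap, with a log2 fold change of -1.23 (SE 0.13, edgeR's adjusted p = 0.000204). Gstt1 had 1346, 1284 and 1198 against 2016, 1968 and 2065 (log2 fold change -0.66, SE 0.08, edgeR's adjusted p = 0.000482). Gstt3 had 443, 488 and 376 against 568, 704 and 649 (log2 fold change -0.56, SE 0.14, edgeR's adjusted p = 0.0125). Both theta class genes were lower in every TNF+ lung, but the call for Gstt3 was lost without TNF- lung 2 (adjusted p = 0.0522), and Gstt3 shares 13.6% of its exon bases with Gm20441 on the same strand. Gstt2 overlapped. The omega class genes Gsto1 and Gsto2 were lower too, Gsto1 with 3499, 3582 and 2261 against 4962, 4385 and 4819 (log2 fold change -0.60, SE 0.17, edgeR's adjusted p = 0.0218). Gsto2 had only 11.9, 15.5 and 10.4 against 23.9, 32.6 and 39.1 (log2 fold change -1.33, SE 0.33, edgeR's adjusted p = 0.012). Neither omega class gene overlapped between the groups.

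In the alpha class, Gsta4, which acts on products of lipid peroxidation, had normalized counts of 1322, 1421 and 999 in TNF+ lungs and 2440, 1958 and 2119 in TNF- lungs (log2 fold change -0.80, SE 0.15, edgeR's adjusted p = 0.00279). Gsta3 had 4502, 4974 and 3909 against 2846, 3134 and 3523 (log2 fold change 0.49, SE 0.13, edgeR's adjusted p = 0.0128). So these genes of 1 class moved in opposite directions, each without overlap, although Gsta3 was not called without TNF- lung 1 (adjusted p = 0.0534). Gsta1 and Gsta2 were low. Gsta1 had 23.7, 16.5 and 10.4 against 101, 35.5 and 36.4 (log2 fold change -1.79, SE 0.52, edgeR's adjusted p = 0.0215), and Gsta2 had 60.7, 50.7 and 27.4 against 180, 104 and 130 (log2 fold change -1.59, SE 0.33, edgeR's adjusted p = 0.00548). TNF- lung 1 was the highest for both, and without it the log2 fold change of Gsta1 was -1.14 (adjusted p = 0.0604). The call for Gsta1 was also lost without TNF+ lung 2 (adjusted p = 0.0652) and without TNF+ lung 3 (adjusted p = 0.0695). As 80.6% of the 100-base windows of Gsta1 and 28.4% of those of Gsta2 occur in other genes, among them each other, their separate counts are uncertain.

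The pi class did not pass. Gstp1 had normalized counts of 4607, 4816 and 3873 in TNF+ lungs and 5095, 4774 and 5807 in TNF- lungs, with overlap (log2 fold change -0.24, SE 0.12, edgeR's adjusted p = 0.146). Gstp2 had 3410, 3496 and 2949 against 3923, 3563 and 4460, lower in every TNF+ lung but not past the threshold (log2 fold change -0.28, SE 0.12, edgeR's adjusted p = 0.0858). DESeq2 gave Gstp2 an adjusted p of 0.0449. These 2 genes share sequence, 25.1% of the windows of Gstp1 and 46.9% of those of Gstp2 being found elsewhere, and their count ratio was 1.3 to 1.38 over all lungs. Gstp3 had 315, 478 and 231 against 139, 161 and 259, with overlap through TNF- lung 3 (log2 fold change 0.87, SE 0.32, edgeR's adjusted p = 0.0505). Its adjusted p was 0.0123 by DESeq2, 0.0309 without TNF+ lung 3 and 0.0169 without TNF- lung 3.

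Sod1, Sod3 and catalase, which remove superoxide and hydrogen peroxide, did not pass. Sod1, the cytosolic superoxide dismutase, had normalized counts of 8416, 9059 and 6263 in TNF+ lungs and 7777, 8642 and 10207 in TNF- lungs (log2 fold change -0.17, SE 0.17, edgeR's adjusted p = 0.44). The extracellular Sod3 had 19848, 20302 and 17651 against 17994, 20417 and 15829 (log2 fold change 0.09, SE 0.13, edgeR's adjusted p = 0.603), and catalase (Cat) 6916, 6518 and 5903 against 6747, 6496 and 5982 (log2 fold change 0.01, SE 0.11, edgeR's adjusted p = 0.955). The groups overlapped for all 3, and neither edgeR at an unadjusted p under 0.05 nor DESeq2 called any of them (0 of 3). Nqo1, a quinone reductase widely used as a readout of NRF2, had 145, 264 and 196 against 184, 142 and 142. It overlapped as well, TNF+ lung 1 being below TNF- lung 1 (log2 fold change 0.37, SE 0.24, edgeR's adjusted p = 0.235).

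**Figure D4:**
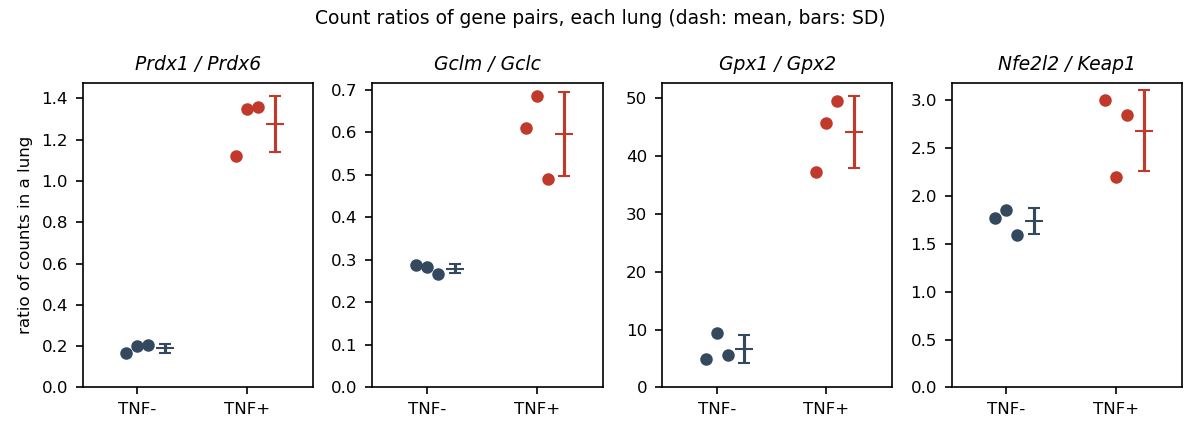
Ratio of the counts of a pair of members within each lung (points), with the group mean (dash) and SD (bars), 3 lungs a group. For all 4 pairs the TNF+ lungs lie above the TNF- lungs, and the ratio of Prdx1 to Prdx6 is 1.12 to 1.36 against 0.166 to 0.205.

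Genes of neighbouring pathways, 88 in 6 lists and none of them members, were taken from textbook knowledge. Of these 35 were higher and 16 lower (58.0% called, against 47.4% of all genes), with a median log2 fold change of 0.13. In glutathione synthesis and export, 2 of 13 rose and 5 fell (median -0.04), or 3 without TNF+ lung 2. The 2 that rose were Slc7a11, which imports cystine, and the exporter Abcc1. Slc7a11 had 1333, 2343 and 1259 counts in TNF+ lungs and 22, 10 and 37 in TNF- lungs (log2 fold change 6.38, SE 0.42, edgeR's adjusted p = 2e-05), the largest difference in these 6 lists. Abcc1 changed by 1.78 (SE 0.12, edgeR's adjusted p = 1.75e-05). Cbs, which opens the path from homocysteine to cysteine, and Ggt6 fell by 1.65 and 1.22 on the log2 scale, and Ggt6 was not called without both lungs numbered 1 (edgeR's adjusted p = 0.0509).

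The supply of NADPH, which glutathione and thioredoxin reductases consume, was mostly higher, with 5 of 8 genes up and 2 down (median log2 fold change 0.70). Pgd and G6pdx of the pentose phosphate pathway rose by 1.27 and 1.19 on the log2 scale, while Me1 and Idh2 fell by 0.53 and 0.36. The call for Idh2 was lost without TNF+ lung 2 (edgeR's adjusted p = 0.0587) and without TNF+ lung 3 (0.0597), and with the replicate number as a block (0.0643), which left 1 of the 8 genes lower. In a list of other NRF2 targets and of genes that work with or against NRF2, 11 of 22 rose and 3 fell (median 0.31). Bach1, which works against it, was among the 11 (log2 fold change 0.32, edgeR's adjusted p = 0.0268). Its call held in 1 of the 6 fits that leave out 1 lung. Hmox1, which breaks down heme, had normalized counts of 12426, 17872 and 13667 in TNF+ lungs and 763, 719 and 778 in TNF- lungs (log2 fold change 4.28, SE 0.17, edgeR's adjusted p = 3.19e-06). Blvrb changed by 2.58. Aox1 and Mafk, a small MAF protein that pairs with NRF2, fell by 0.86 and 0.62 on the log2 scale.

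In 3 further lists, of enzymes that work beside the members, counts were mixed. In the list of thioredoxin, glutaredoxin and methionine sulfoxide repair genes, 6 of 16 rose and 3 fell (median log2 fold change 0.01), led by Sod2, the mitochondrial superoxide dismutase, at 1.51 (SE 0.10, edgeR's adjusted p = 1.75e-05) and Msrb1 at 1.37. Sod2 had normalized counts of 4670, 4694 and 4445 in TNF+ lungs and 1580, 1515 and 1769 in TNF- lungs, without overlap. Msrb3 and Msrb2 fell by 0.71 and 0.65 on the log2 scale, the latter not being called without TNF+ lung 2 (edgeR's adjusted p = 0.0697), without TNF+ lung 3 (0.0598) or without TNF- lung 2 (0.0688). Of microsomal transferases and other users of glutathione, 4 of 12 rose and 3 fell (median -0.02), or 1 fell without both lungs numbered 1, with Hpgds, a prostaglandin D synthase, at 3.44, Esd at 1.19, Gstz1 at -0.63 and Mgst3 at -0.44, the last not called in that fit (edgeR's adjusted p = 0.083). Of selenoproteins and selenium supply, 7 of 17 rose and 0 fell by edgeR, with 2 lower at an unadjusted p under 0.05 and 1 by DESeq2 (median 0.29). Without both lungs numbered 1, 2 rose. The list was led by Dio2 at 1.83 and Sephs2 at 1.26.

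The cell makeup of the lungs, as far as marker genes show it, moved with genotype, and its part in the results above was not tested. In whole tissue, fewer cells of a type and less RNA per cell cannot be told apart. Markers of airway and alveolar epithelium were mostly lower. For club cells 7 of 7 fell and the summed normalized counts were 167476 to 219982 in TNF+ lungs and 473498 to 771313 in TNF- lungs. For ciliated cells 6 of 6 fell (10539 to 13901 against 45736 to 49123), and for alveolar type 1 cells 6 of 6 (39722 to 46899 against 113236 to 124812). Alveolar type 2 markers fell in 2 of 7 genes by edgeR and in 5 by DESeq2, with 478830 to 612312 against 681951 to 822569.

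Markers of immune cells were mostly higher. Interstitial macrophage and monocyte markers rose in 8 of 8 genes (109062 to 134261 against 10744 to 11997), C1qa among them with a log2 fold change of 4.27 (edgeR's adjusted p = 5.44e-06). Alveolar macrophage markers rose in 2 of 7, Marco at a log2 fold change of 7.10 and Chil3 at 1.23, and most of the sum in TNF+ lungs (66360 to 109370 against 11977 to 15048) was Marco, at a mean of 67751 against 494. Siglecf, Car4 and Krt79, 3 genes of the same list, fell. B and plasma cell markers rose in 5 of 6 genes, and most of their sum in TNF+ lungs (60060 to 123778 against 3045 to 9538) was Jchain, at a mean of 88929 against 2479. T cell markers rose in 5 of 6, and most of their sum in TNF+ lungs (10363 to 14932 against 1293 to 2372) was Cd4, at a mean of 10700 against 374. The other 5 T cell markers, Cd3d, Cd3g, Cd8a, Trac and the uncalled Cd3e, differed by 1.18- to 2.23-fold. Without both lungs numbered 1, 3 markers of each of these 2 lists rose. Neutrophil markers rose in 2 of 6 and fell in 4, S100a8 and S100a9 being lower and Mmp9 at a log2 fold change of 4.99, with a mean of 16122 against 507, most of the list's sum in TNF+ lungs. The number that fell was 2 without TNF+ lung 2, TNF+ lung 3 or TNF- lung 3, and the number that rose was 1 without TNF+ lung 1, TNF+ lung 3, TNF- lung 1 or TNF- lung 2.

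Vessel, stromal and blood markers were mostly lower. Endothelial markers fell in 5 of 6 genes and rose in 1 (37990 to 45526 against 71074 to 87695), fibroblast markers fell in 4 of 6 (25008 to 26285 against 35293 to 55334), or in 2 without any 1 of the TNF+ lungs or without TNF- lung 1, and smooth muscle markers in 4 of 5 (16598 to 17372 against 29638 to 35622). Red blood cell markers fell in 6 of 7 (246934 to 362037 against 1013442 to 1845838). Cardiac muscle markers fell in 6 of 6 (8814 to 10975 against 32330 to 42356), and mesothelial markers in 2 of 4 (2323 to 4098 against 3561 to 7715). Fat cell markers fell in 1 of 4 tested (114 to 1152 against 1031 to 2078), or in 4 without TNF+ lung 3 and in 0 without TNF+ lung 1, TNF+ lung 2 or TNF- lung 3, and the squamous and skeletal muscle lists, in which edgeR called 3 of 3 tested and 3 of 5 lower and DESeq2 2 and 0, had their high values in TNF- lung 1. With 1 lung left out, edgeR called 0 to 3 of the squamous markers lower, with 0 or 1 when it was a TNF+ lung. It called 0 to 5 of the skeletal muscle markers lower, with 0 when it was a TNF+ lung and 1 when it was TNF- lung 1.

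**Figure D5:**
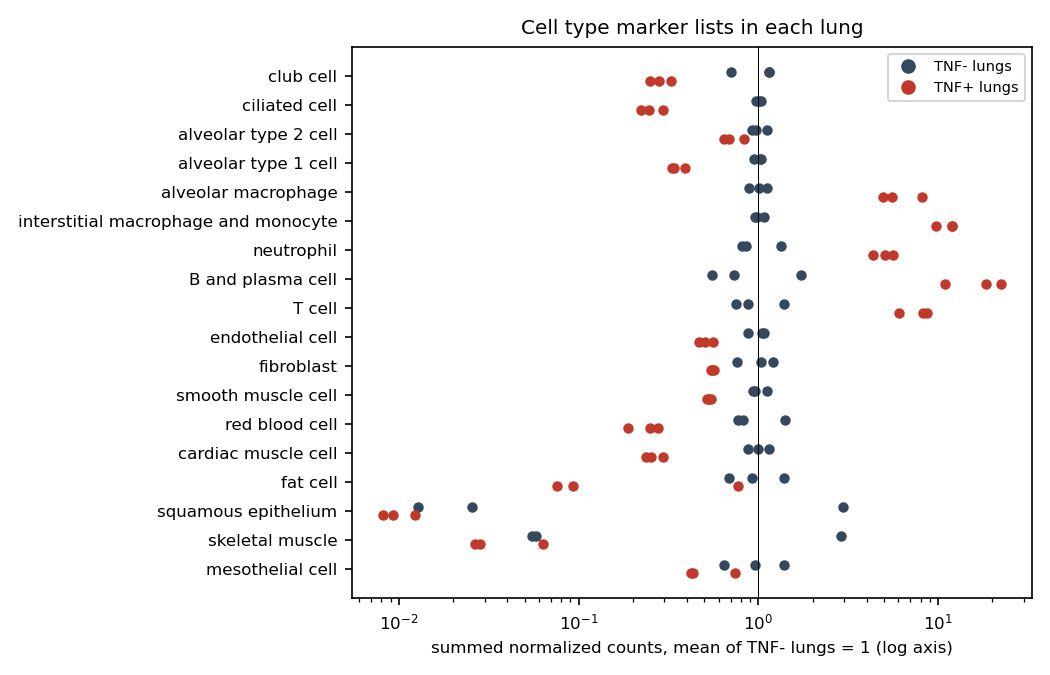
Summed normalized counts of each cell type marker list in each lung, relative to the mean of the TNF- lungs (log axis), TNF- lungs in dark blue and TNF+ lungs in red. Interstitial macrophage and monocyte markers lie to the right in every TNF+ lung (109062 to 134261 against 10744 to 11997) and club cell markers to the left (167476 to 219982 against 473498 to 771313).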

How the data were processed

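Whole-lung poly(A) RNA of 3 TNF+ and 3 TNF- mice was sequenced as single-end 100 bp reads from libraries made with a stranded kit. The authors deposited raw counts, whole numbers of reads per gene symbol and lung without normalization, made per the labels with Trimmomatic (0.36), STAR (2.5.2b) and featureCounts on GRCm38.p5. The counting annotation and strand setting are not given in the sources used here. Columns were tied to mice by the genotype and number in their names, and all 6 were used.

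The members and gene lists were chosen with earlier results of these data known. Counts were tested on the whole table with edgeR (4.0.16, R 4.3.3): filterByExpr, TMM, the quasi-likelihood test on genotype alone, Benjamini-Hochberg over all genes tested, threshold 0.05. The SE is the log2 fold change divided by the square root of F. Alternatives were DESeq2 (1.42.0), limma-voom (3.58.1), other scalings and filters, robust dispersion, a replicate block, a minimum log2 fold change of 1 and each lung left out. All tested members with separate groups that passed are named with values per lung, and from each pathway list at most the 2 largest rises and falls whose log2 CPM (prior count 2) averages 1 or more. Gss, Txn2, Txnrd2, Txnrd3 and Bach1 are named outside this rule. Gm42418 and the genes for which alternatives are given were singled out after values were seen.

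Gene positions, exon lengths and overlaps come from GENCODE M21 and promoters from RefSeq, both GRCm38, where 47313 of the 49568 symbols were found. Shared sequence is the percentage of the 100-base stretches in a gene's mRNAs that match an mRNA of some other gene exactly. Levels per exon length divide normalized counts by the union of exons. Scripts were tested on simulated data. Replicate libraries differed by more than sampling noise (chi-square per degree of freedom 53.7 to 140), so each lung is 1 replicate. Each lung came from a separate mouse. The p-values set the difference between genotypes against the spread between lungs, which is estimated with information from all genes tested. That spread includes differences between libraries as well as between mice. Depth and the floor of 3 counts are given with the results.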

Additional observations from a re-analysis of the deposited data

How the results depend on the processing

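The 44 tested members gave 703 values under 16 alternative fits, of which 644 kept direction and side of the threshold, 42 lost a call, 7 gained one and 10 changed sign, the last all in uncalled genes. Member calls were 31 (15 higher, 16 lower) and 25 to 32 in all 16. With a minimum log2 fold change of 1, 12 of the 44 passed (7 higher, 5 lower). Of the 19199 genes tested 4320 did so (1980 higher, 2340 lower), and of the 88 pathway list genes 21 (18 higher, 3 lower). Leaving out 1 lung gave 25 to 30 members (11 to 14 higher, 14 to 16 lower) and 7347 to 9164 of all genes (3392 to 4571 higher). Without both lungs numbered 1, added after seeing the data, 2689 of all genes were higher and 3375 lower.

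Lungs of the same number came from different animals, as their genotypes differ. Deviations of same-numbered lungs correlated across genes at -0.24 to 0.00, and 0 of 3 TNF+ lungs were closest to their own number. These deviations are taken from means of 3 lungs and cannot decide whether a litter or batch was shared. With the replicate block 28 members passed (12 higher, 16 lower, beside 7686 of all genes), and Prdx2, Prdx3 and Gpx4 lost their calls. Of the pathway list genes 45 passed, against 51 without the block. Among those that lost the call were Idh2, Gss (edgeR's adjusted p = 0.0672), Txnrd2 (0.0914) and Bach1 (0.0562).

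Signs turned for Cat (-0.02 with DESeq2, with its size factors in edgeR and with total counts, -0.08 to 0.05 with 1 lung left out, -0.05 without both), Gpx3 (-0.07 to 0.17, -0.11 without both), Gstm6 (-0.35 to 0.08) and Sod3 (-0.001 to 0.18). The cause was not tested. Leaving out both lungs numbered 1 ended the calls of 6 members (Gsta3, Gstm5, Gpx7, Prdx2, Prdx3 and Gpx4), and 37 pathway list genes passed against 51 with all lungs. The 8 called members that lost a call in some fit had edgeR adjusted p of 0.0125 to 0.0448 with all 6 lungs.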
